A study of Mus musculus with 8 samples.

Results

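The T cell and cytotoxic genes described here are 10 mouse genes that mark T lymphocytes or encode killing proteins. They fall by role into the T cell receptor complex (Cd3d, Cd3e, Cd3g), the coreceptors (Cd4, Cd8a, Cd8b1), the kinase Lck with the adhesion molecule Cd2, and the granzymes (Gzma, Gzmb). Members were the probes whose deposited symbol is one of these names. That gave 10 of the 25697 probes in the table, for 9 of the 10 genes. No probe used here carried the symbol Gzma, and that gene was not analysed here. Of the 10 probes, 7 (6 genes) were detected on at least 4 of the 8 arrays and were tested. The probes of Cd4, Cd8a and Gzmb were not.

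RNA was measured on Illumina BeadChips in ileal tumours of 8-month-old mice of a mixed C57BL/6J-FVBN strain. The 4 VP16LXRa tumours (numbered 5 to 8) came from APCmin/+/VP16LXRa mice, whose transgene fuses LXRα, the liver X receptor alpha that senses oxysterols, to the viral activation domain VP16. The 4 control tumours (numbered 1 to 4) came from APCmin/+/VP16 mice, which carry VP16 alone. Both groups carry the Min mutation of Apc on 1 of its alleles, which causes intestinal tumours. Neither the labels nor the design text names the promoter and cell type that drive the transgenes, the sex of the mice or the number of mice behind the 8 arrays. The p-values therefore cover the spread among these 8 samples, which may be partly technical. The comparison asks whether tumours with the constitutively active receptor differed from control tumours in these genes.

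T cells recognise antigen through a receptor whose signal is carried into the cell by the CD3 chains. CD4 or CD8 binds the presenting MHC molecule alongside the receptor and brings the kinase LCK to it, and cytotoxic cells then release perforin and granzymes into their target. The ileal epithelium normally holds many CD8-bearing intraepithelial lymphocytes, and organised lymphoid tissue of the ileum holds B and T cells together.

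Between 49.0% and 54.7% of probes were detected per array. All 7 tested epithelial markers, keratins and villin among them, were detected on all 8 arrays. VP16LXRa 5 stood apart from the rest. The median of its correlations with the rest was 0.869, where the other VP16LXRa arrays had 0.939 to 0.942 and the controls 0.910 to 0.933. Levels below are log2 intensities after background correction and quantile normalization, and every difference is VP16LXRa minus control on that scale. Levels of different probes are not comparable with each other.

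None of the 7 tested probes differed past the threshold between VP16LXRa and control tumours. Over the whole array 0 of 13426 probes passed, a share of 0% at a limma p of 0.05 after Benjamini-Hochberg adjustment. At an unadjusted p under 0.05, 0 of the 7 passed, and 2.5% of all probes did. The groups overlapped for all 7, where 1.74% of all probes had no overlap. Of the 7, 5 were lower and 2 higher in VP16LXRa tumours, with a median difference of -0.17, beside 49.8% of all probes lower and a median of 0.0018. The adjusted p of each of the 7 was 0.998 (limma), with unadjusted p between 0.134 and 0.928. The direction rested on single arrays: 1 of the 7 was lower without control 2, 3 without VP16LXRa 7 and 6 without control 4. Over the 6 genes the median was -0.23 with all arrays, 0.36 without control 2, 0.023 without VP16LXRa 7 and -0.69 without control 4. Without VP16LXRa 5, 5 were lower, and the differences ran from -1.28 for Cd2 to 0.41 for Cd3g.

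What the members showed was a spread between tumours, wider in the control group. Control 2 had the highest level of all 8 arrays for 7 of the 7 probes, and 11.3% of all tested probes peaked in that array. Control 4 had the lowest for 5 of the 7, beside 16.4% of all probes. The SD of the 4 control tumours exceeded that of the 4 VP16LXRa tumours for 7 of the 7, beside 52.4% of all probes. This wider control spread was not particular to T cell genes. It was seen for 6 of 7 epithelial, 5 of 6 B and plasma cell, and 8 of 12 macrophage and dendritic cell markers. Likewise it was seen for 5 of 5 stroma chemokines, 3 of 3 neutrophil and 3 of 4 mast cell markers. For 5 of the 7 member probes, all 4 VP16LXRa values lay inside the range of the controls, beside 25.3% of all probes. The wider control spread held for 5 of the 7 without control 2, for 7 without control 4, and for 2 between controls 1 and 3 alone. No test was made of these counts, the probes share their arrays, and 2 of them target Cd8b1. In bulk tumour RNA, fewer T cells and less RNA per T cell cannot be told apart.

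**Figure D1:**
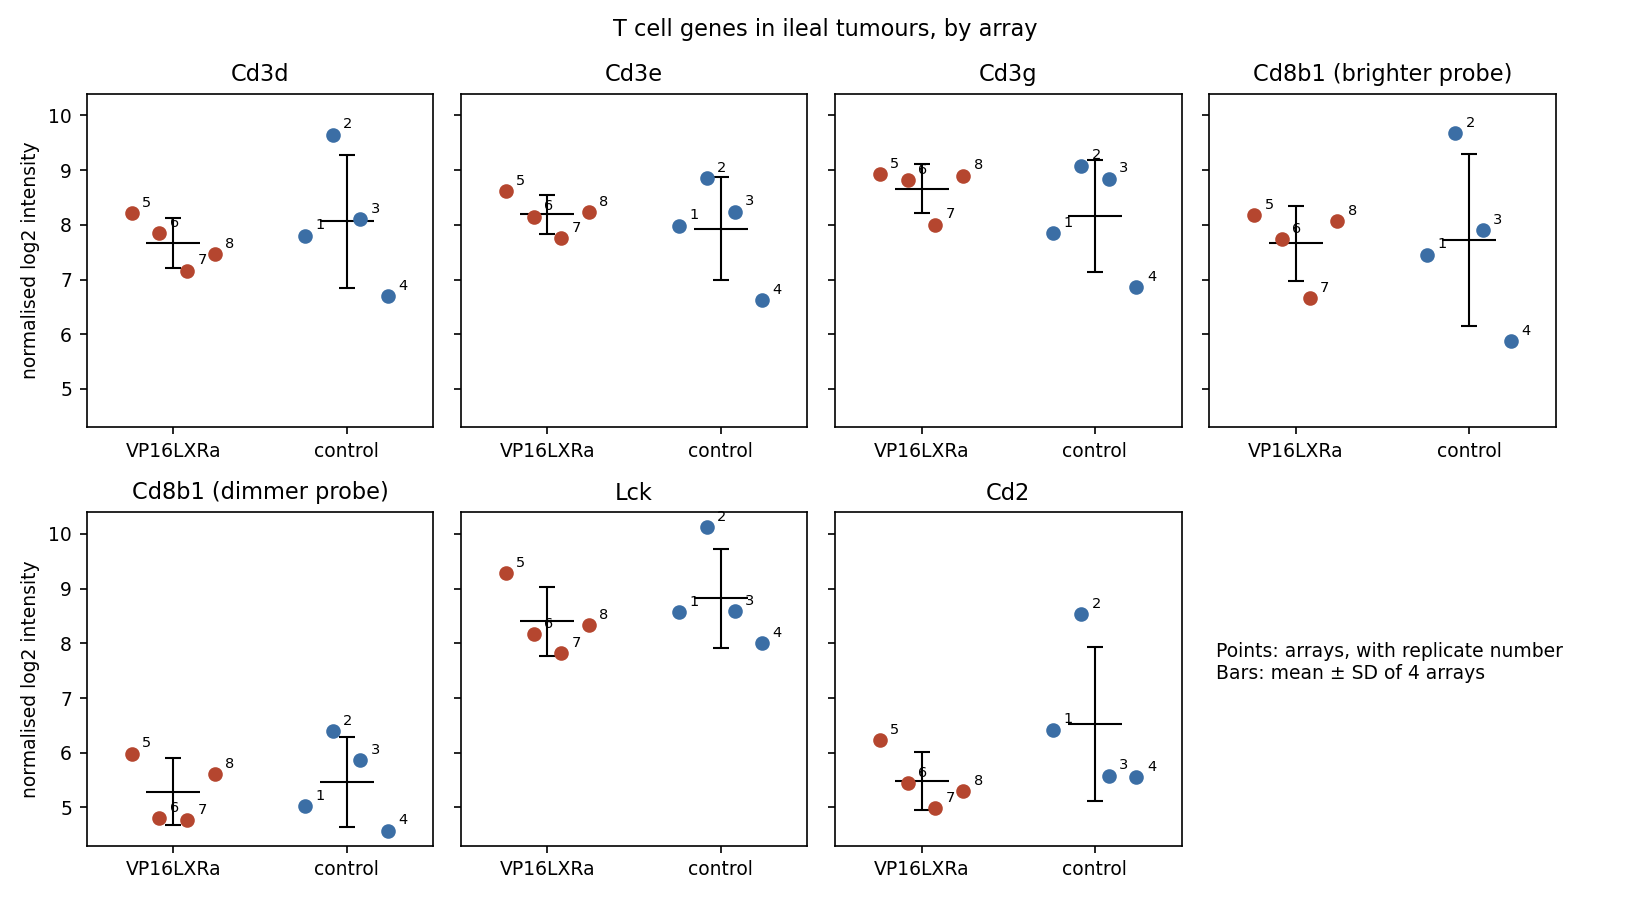
Normalised log2 intensity (vertical axis) of the 7 tested T cell probes in each of the 4 VP16LXRa tumours (red, left) and 4 control tumours (blue, right); points carry the replicate number, and black bars are the mean ± SD. Control 2 is the highest point in every panel, and the groups overlap in all of them.

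The T cell receptor complex is encoded by 3 neighbouring genes on chromosome 9 whose products, CD3δ, CD3ε and CD3γ, each carry 1 signalling motif in the cytoplasm. Their promoters are shown because the 3 genes are neighbours and their levels correlated across tumours, with r from 0.72 to 0.94 over the 8 arrays. In the RefSeq sequence of GRCm38.p6 the start sites of Cd3g (minus strand) and Cd3d (plus strand) point away from each other, 1355 bases apart. Cd3e (minus strand) starts 27825 bases from Cd3d. The 250 bases before each start site follow, 5′ to 3′ on the gene's own strand, for Cd3d (chr9:44981536-44981785, plus), Cd3g (chr9:44980432-44980681, minus) and Cd3e (chr9:45009612-45009861, minus). Capitals mark matches, on either strand, to CAGGAA (a core bound by ETS factors) and AGATAA (bound by GATA factors).
Cd3d: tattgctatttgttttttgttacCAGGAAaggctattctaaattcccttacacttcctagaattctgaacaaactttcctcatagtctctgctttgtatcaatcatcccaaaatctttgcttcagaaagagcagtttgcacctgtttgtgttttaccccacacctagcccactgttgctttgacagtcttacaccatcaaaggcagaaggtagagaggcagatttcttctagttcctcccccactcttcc
Cd3g: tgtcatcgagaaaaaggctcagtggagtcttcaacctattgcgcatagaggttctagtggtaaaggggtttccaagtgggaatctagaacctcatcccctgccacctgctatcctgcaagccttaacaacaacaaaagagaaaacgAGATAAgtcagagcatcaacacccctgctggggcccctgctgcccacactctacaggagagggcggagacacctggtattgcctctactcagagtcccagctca
Cd3e: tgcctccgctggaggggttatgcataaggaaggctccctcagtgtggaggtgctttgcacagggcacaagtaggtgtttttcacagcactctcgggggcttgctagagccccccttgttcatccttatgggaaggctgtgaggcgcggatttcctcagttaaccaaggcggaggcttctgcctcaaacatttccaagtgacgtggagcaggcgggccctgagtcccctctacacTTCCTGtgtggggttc
The ETS letters begin 227 bases before the start in Cd3d and 16 before it in Cd3e, and the GATA letters begin 104 before it in Cd3g. CAGGAA occurs in 25.7% and AGATAA in 9.99% of all 32851 promoter windows of this length, and the matches do not overlap. None of the 3 windows holds TGTGGT (the RUNX core, in 14% of windows), TATAAA (in 12.4%) or 2 copies of AGGTCA spaced by 4 bases, the repeat bound by LXR (in 0.0152%). These are matches of letters only. Of the 10 members 7 matched an entry, and Cd2, Cd4 and Cd8b1 did not.

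Cd3d, the delta chain, had levels of 8.22, 7.85, 7.16 and 7.46 in VP16LXRa tumours 5 to 8 and of 7.80, 9.65, 8.11 and 6.69 in control tumours 1 to 4. Both the highest and the lowest value belonged to controls, and the 4 VP16LXRa tumours lay between them. The means were 7.67 ± 0.46 (SD, n = 4) in VP16LXRa and 8.06 ± 1.22 (SD, n = 4) in control tumours, a difference of -0.39 (SE 0.55, 95% interval -1.64 to 0.86). Without control 2 the sign turned, to 0.14.

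Cd3e, the epsilon chain, which pairs with each of the other CD3 chains, was at 8.62, 8.15, 7.76 and 8.24 in VP16LXRa tumours 5 to 8 and at 7.99, 8.86, 8.24 and 6.63 in control tumours 1 to 4. Control 4 lay more than 1 log2 unit under every other array. The means were 8.19 ± 0.35 (SD, n = 4) in VP16LXRa and 7.93 ± 0.94 (SD, n = 4) in control tumours, a difference of 0.26 (SE 0.44, 95% interval -0.73 to 1.26). It was 0.57 without control 2 and turned to -0.17 without control 4.

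Cd3g, the gamma chain, was at 8.93, 8.82, 8.01 and 8.90 in VP16LXRa tumours 5 to 8 and at 7.85, 9.08, 8.84 and 6.86 in control tumours 1 to 4. Of the VP16LXRa tumours 3 lay close together and VP16LXRa 7 below them, while controls 2 and 3 were close together, control 1 lower and control 4 lowest. The means were 8.66 ± 0.44 (SD, n = 4) in VP16LXRa and 8.16 ± 1.02 (SD, n = 4) in control tumours, a difference of 0.50 (SE 0.48, 95% interval -0.58 to 1.58). This was the member with the highest difference, and it was 0.070 without control 4 and 0.81 without control 2. The median of the 3 chains was 0.26, between -0.17 without control 4 and 0.57 without control 2.

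Cd8b1 encodes the beta chain of CD8, which conventional CD8 T cells carry and many intraepithelial lymphocytes lack. Its brighter probe was at 8.18, 7.74, 6.66 and 8.06 in VP16LXRa tumours 5 to 8 and at 7.46, 9.68, 7.90 and 5.87 in control tumours 1 to 4. The controls spanned the widest range of any member here, and every VP16LXRa tumour lay within it. The means were 7.66 ± 0.69 (SD, n = 4) in VP16LXRa and 7.73 ± 1.57 (SD, n = 4) in control tumours, a difference of -0.067 (SE 0.71, 95% interval -1.67 to 1.54). The interval therefore takes in changes of more than 1 log2 unit either way. Left-out arrays moved the difference to -0.69 (without control 4), 0.27 (without VP16LXRa 7) and 0.59 (without control 2).

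The second Cd8b1 probe, targeting the same gene, was near background and detected on 2 arrays of each group. Its levels were 5.98, 4.80, 4.76 and 5.62 in VP16LXRa tumours 5 to 8 and 5.02, 6.40, 5.86 and 4.58 in control tumours 1 to 4. It ordered control 2 first and control 4 last, as the brighter probe did. The difference was -0.17 (SE 0.45, 95% interval -1.18 to 0.83), and the 2 probes correlated across the 8 arrays with r = 0.88.

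Cd4, the coreceptor of helper T cells, and Cd8a, the alpha chain of CD8, could not be followed. The Cd4 probe had scanner signals of 144, 144, 134 and 143 in VP16LXRa tumours 5 to 8 and 132, 154, 134 and 139 in control tumours 1 to 4, and was detected only on VP16LXRa 5 and control 2. These are the arrays with the highest levels of all 3 CD3 chains in their groups. The Cd8a probe, designed on transcript variant 1, had signals from 107 to 131 in VP16LXRa and from 113 to 142 in control tumours and was detected on no array, although a Cd8b1 probe was detected on all 8. No difference is given for a gene at background in both groups, and whether these probes bind their transcripts well was not tested.

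**Figure D2:**
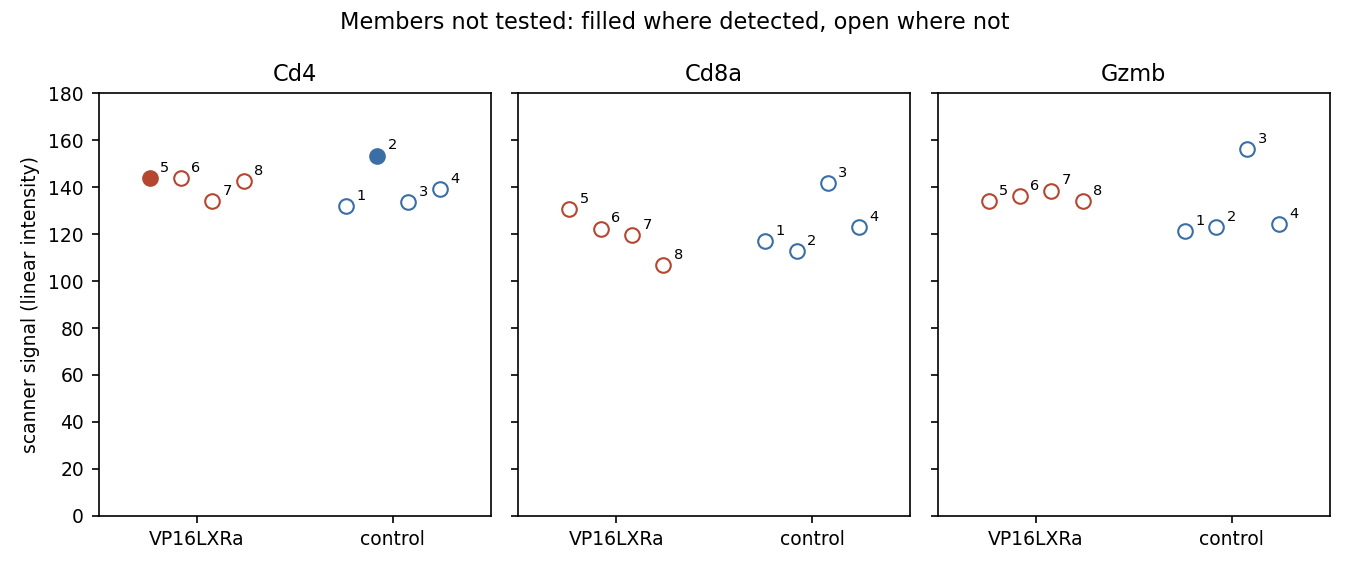
Scanner signal on a linear scale (vertical axis) of the Cd4, Cd8a and Gzmb probes in the 4 VP16LXRa (red, left) and 4 control (blue, right) tumours, numbered by replicate; filled points had a detection p under 0.05. Only 2 points, both of Cd4, are filled.

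Lck encodes the kinase that phosphorylates the CD3 chains once the receptor is engaged. It was at 9.28, 8.17, 7.82 and 8.33 in VP16LXRa tumours 5 to 8 and at 8.57, 10.12, 8.59 and 8.00 in control tumours 1 to 4. Apart from control 2 and VP16LXRa 5, the tumours of both groups lay within 1 log2 unit of each other. The means were 8.40 ± 0.62 (SD, n = 4) in VP16LXRa and 8.82 ± 0.91 (SD, n = 4) in control tumours, a difference of -0.42 (SE 0.48, 95% interval -1.50 to 0.65). It was 0.012 without control 2 and -0.72 without VP16LXRa 5.

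Cd2 encodes an adhesion receptor of T and NK cells that mouse B cells carry too. Its levels were 6.23, 5.45, 4.99 and 5.29 in VP16LXRa tumours 5 to 8 and 6.42, 8.54, 5.58 and 5.55 in control tumours 1 to 4. Control 2 stood more than 2 log2 units above every other array, and the probe was not detected on VP16LXRa 7. The means were 5.49 ± 0.53 (SD, n = 4) in VP16LXRa and 6.52 ± 1.40 (SD, n = 4) in control tumours, a difference of -1.03 (SE 0.63, 95% interval -2.45 to 0.38, unadjusted p = 0.134 with limma). This was the largest difference among the 7 probes, and without control 2 it was -0.36. Without background correction it was -0.49.

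The B and plasma cell markers moved with control 2 as well. Of the 10 with a probe, 6 were tested, and 5 of the 6 were highest in control 2. Their mean deviation from the 8-array mean was 2.67 there, while the rest ran from -0.85 to 0.32. Cd79b, a chain of the B cell receptor, reached 11.52 in control 2, and all other arrays lay between 5.95 and 8.43. The 3 CD3 genes and the B cell list shared their highest array, control 2. Control 4, the lowest for the CD3 genes, was at -1.39 on the T cell receptor score and at 0.15 on the B cell score, while Lck and Cd2 were lowest in VP16LXRa 7 and the B cell score was at -0.85 in both VP16LXRa 8 and control 3. The part of B cells in the Cd2 value was not tested.

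**Figure D3:**
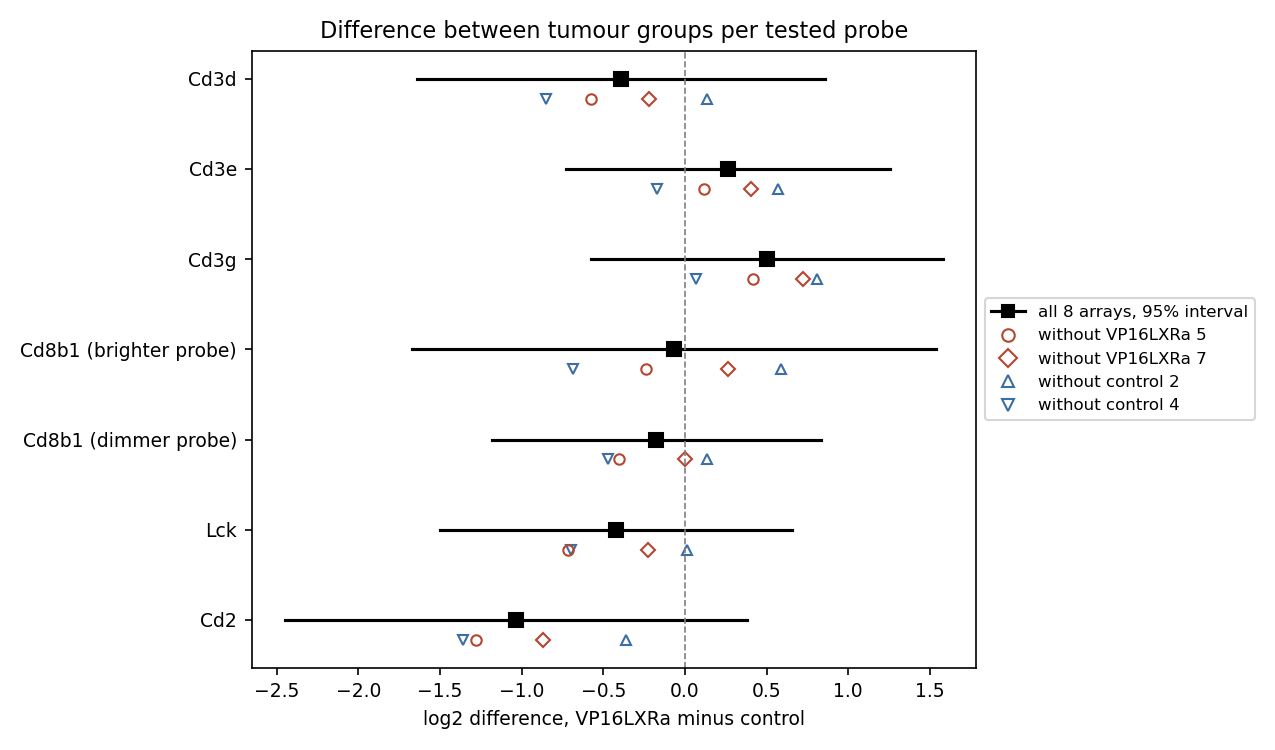
Log2 difference, VP16LXRa minus control, of the 7 tested probes (squares) with 95% intervals, and the same difference with 1 array left out (open symbols). All 7 intervals include 0, and leaving out control 2 or control 4 moved the differences in opposite directions.

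The granzyme probe, unlike those of the receptor complex, gave no signal above background. Granzyme B is the serine protease that starts apoptosis in a target cell once perforin has opened the way. The Gzmb probe had signals of 134, 136, 139 and 134 in VP16LXRa tumours 5 to 8 and 121, 123, 156 and 124 in control tumours 1 to 4, and its lowest detection p was 0.0539. It was detected on no array, control 2 included, where the CD3 genes peaked. The other granzymes were also dim. Over Gzmb and 7 further granzyme genes of the lists, 10 probes were present, 5 of them detected on no array and only that of Gzmm on at least 4. Gzmm differed by -0.16 (SE 0.26).

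Some of the other cytotoxic genes were measurable. Of 18 listed genes beside Gzma and Gzmb, 10 were tested, 5 higher and 5 lower, with 0 past the threshold and a median of -0.067. Without control 4 all 10 were lower, with a median of -0.19, and without VP16LXRa 5, 8 were. The brightest were Lamp1, a lysosomal membrane protein of many cell types, which differed by -0.18 (SE 0.21), and Prf1, perforin, which differed by -0.19 (SE 0.32). Prf1 was at 11.44, 10.92, 10.46 and 10.72 in VP16LXRa tumours 5 to 8 and at 11.41, 11.32, 10.33 and 11.24 in control tumours 1 to 4. In control 4, where the CD3 genes were lowest, perforin was among its higher values, and it was lowest in control 3. A second Prf1 probe was detected on 1 of the 8 arrays, with signals of 118 to 147, and was not tested.

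In the wider T cell pathway no gene passed. Of 31 further signalling genes, 22 had a probe and 14 were tested, 12 lower and 2 higher in VP16LXRa tumours, with 0 past the threshold and a median of -0.29, beside 49.8% of all probes lower. Without control 2, 6 of the 14 were lower with a median of 0.040, and without VP16LXRa 7, 7 were lower with a median of -0.023. Of these 14, 11 were highest in control 2. The brightest were Csk, the kinase that holds LCK inactive, at -0.55 (SE 0.28), and Thy1 at -0.28 (SE 0.59). Thy1 was at 10.63 in VP16LXRa 5, above control 2 at 10.05. Ptprcap, which encodes a partner of the phosphatase CD45, is named here after its values were seen, at 4.44, 4.82, 4.62 and 5.30 in VP16LXRa tumours 5 to 8 and 5.89, 8.03, 5.34 and 5.28 in control tumours 1 to 4. It was detected on 1 VP16LXRa array and 4 control arrays, so it entered the test through the controls, and no difference is given. The 12 lower genes and the median of -0.29 include it.

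No T cell transcription factor passed. Of 11, 5 were tested, 3 lower and 2 higher, with a median of -0.011 (0 lower and a median of 0.12 without control 2). Among them Bcl11b, needed for T cell commitment, was at 0.092 (SE 0.19). Its levels ran only from 9.60 to 10.05. Unlike the CD3 genes, it was neither highest in control 2 (9.82) nor lowest in control 4 (9.92). Foxp3, the factor of regulatory T cells, differed by 0.023 (SE 0.30). Its probe was dim, with signals of 141 to 182. Its other probes were detected on 0 and 1 arrays and were not tested. Foxp3 was named after its values were seen.

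No gene of intraepithelial and NK lymphocytes passed either. Of 18, 11 were tested, 8 higher and 3 lower in VP16LXRa tumours, with 0 past the threshold and a median of 0.18. The 8 include Il2rb, detected on 3 VP16LXRa arrays and 1 control array, which entered the test mainly through the VP16LXRa tumours. Without control 4, 4 were higher and 7 lower, with a median of -0.061, and without control 2 all 11 were higher, with a median of 0.48. The brightest were Ccl5, a chemokine of activated T cells, at 0.63 (SE 0.57; 0.043 without control 4), and Itgae, the CD103 integrin that holds T cells to epithelial cadherin, at 0.70 (SE 0.37). Itgae was at 9.72, 9.26, 9.03 and 9.34 in VP16LXRa tumours 5 to 8 and at 8.61, 8.82, 9.48 and 7.66 in control tumours 1 to 4. Only control 3 overlapped the VP16LXRa tumours, and without control 4 the difference was 0.37. Its unadjusted p was 0.0907 and its adjusted p 0.998 (limma), and its 4 other tested probes differed by -0.32, 0.29, 0.43 and 0.57. Of the 11 genes, 9 were lowest in control 4.

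**Figure D4:**
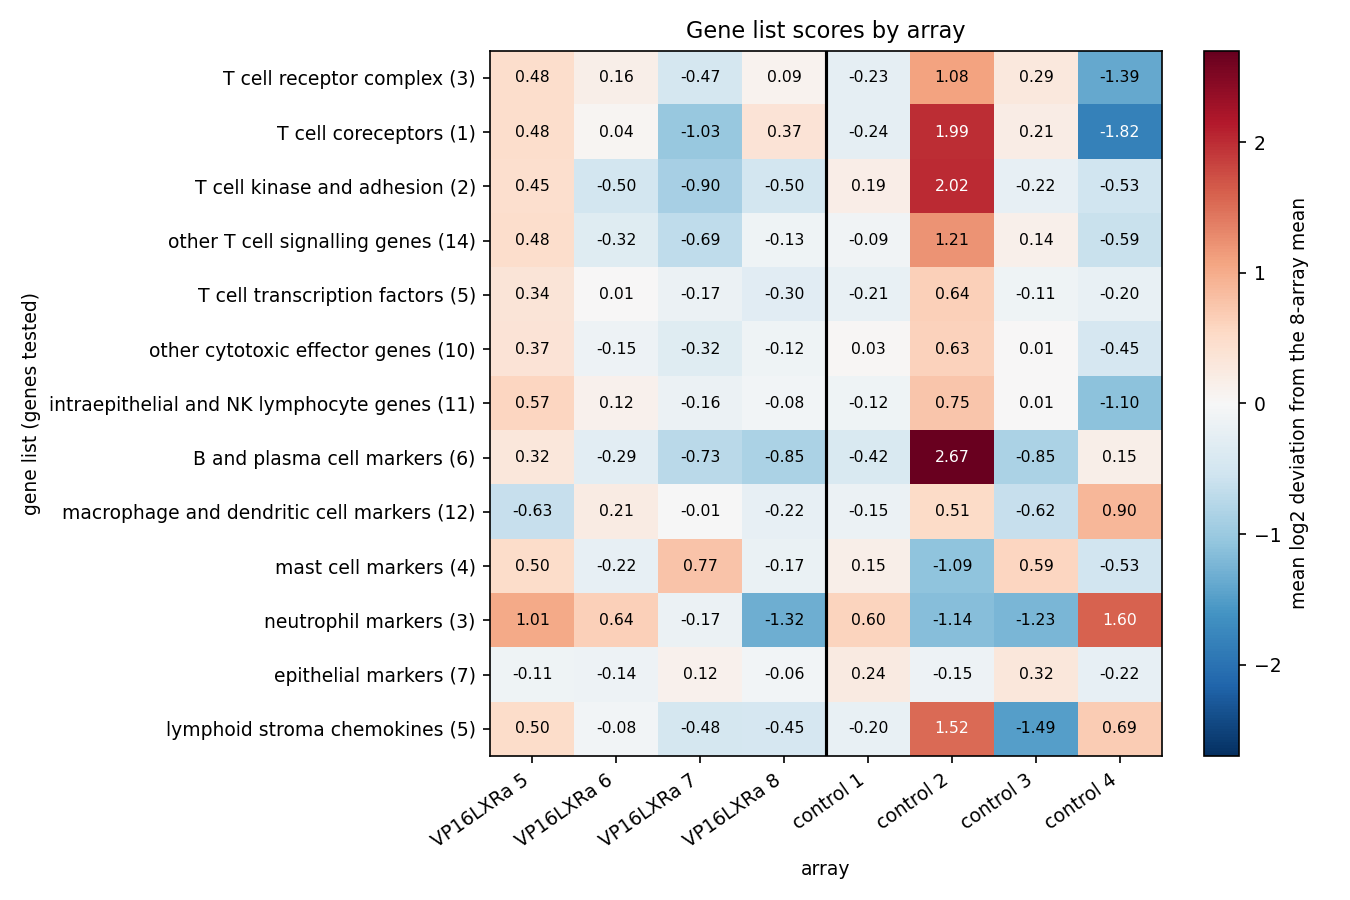
Mean log2 deviation from the 8-array mean (colour and number) of each gene list in the 4 VP16LXRa arrays (left of the line) and the 4 control arrays (right), with the number of genes tested in brackets. The T cell lists, the B cell list and the stroma chemokine list are highest in control 2, and the T cell receptor and intraepithelial lists are lowest in control 4.

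Markers of other cell types gave several orders of the tumours. The macrophage and dendritic cell score was highest in control 4 (0.90) and the neutrophil score likewise (1.60), where the T cell receptor score was lowest, although 6 of the 12 macrophage and dendritic cell genes were highest in control 2. Of 12 tested macrophage and dendritic cell genes, 9 were lower and 3 higher in VP16LXRa tumours, with a median of -0.29. The 3 higher include Fcgr1, detected on 3 VP16LXRa arrays and 1 control array, which entered the test mainly through the VP16LXRa tumours. Without control 2, 8 were lower (median -0.042), and without control 4 also 8 (median -0.058). The brightest were Lyz1, which Paneth cells make, at 0.74 (SE 0.74, with another probe at -0.66), and Lyzs at -0.42 (SE 0.68). The list counts Lyzs and Lyz2, at -1.76 (SE 1.18), as separate symbols, both among the lower ones. All 4 tested mast cell genes were higher (median 0.32, and 3 of 4 with a median of 0.12 without control 2), with Mcpt1 at 0.90 (SE 0.78) and Cpa3 at 0.23 (SE 0.45). Of 3 neutrophil genes 1 was higher (median -0.035), with S100a8 at 0.43 (SE 1.09) and S100a9 at -0.035 (SE 0.93). The 5 tested chemokines of lymphoid and intestinal stroma moved with control 2 as the T and B cell genes did: 4 were highest there, and their score was 1.52 in control 2, from -0.48 to 0.50 in VP16LXRa tumours and from -1.49 to 0.69 in the other controls. Their median difference was -0.26 (0.13 without control 2 and 0.077 without control 4), with Ccl25 at 0.43 (SE 0.35) and Ccl21a at -0.26 (SE 0.69). Cxcl13, which draws B cells into follicles and is named here after its values were seen, was at 8.60, 6.85, 6.29 and 6.31 in VP16LXRa tumours 5 to 8 and at 7.23, 11.88, 5.42 and 9.05 in control tumours 1 to 4. The B and plasma cell list had 5 of 6 lower (median -0.86, and 3 of 6 with a median of -0.045 without control 2), with 2010001M09Rik at -0.84 (SE 0.63) and Cd79b at -1.58 (SE 0.96). Those 5 include Blk, which was detected on 1 VP16LXRa array and 3 control arrays and entered the test mainly through the controls. Epithelial markers spanned -0.22 to 0.32 as a score. Of the 7 tested, 6 were lower in VP16LXRa tumours, with a median of -0.084 and a range of -0.41 to 0.54, beside 49.8% of all probes lower. Without control 1, 4 of the 7 were lower (median -0.050). The brightest were Krt8 at -0.084 (SE 0.20) and Krt20 at -0.067 (SE 0.33). None of these genes passed the threshold, and the part of these cells in the members' values was not tested.

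The tested members kept step with each other across tumours to differing degrees. Lck and Cd2 followed Cd3g and Cd3e less than the other members did, and Cd2 did so least once control 2 was left out. Over the 21 pairs of their 7 probes, Pearson's r over the 8 arrays had a median of 0.84 and ranged from 0.32 to 0.94. The pairs include the brighter with the dimmer Cd8b1 probe (0.88). Without control 2 the median was 0.75 and the range -0.0001 to 0.95, with the lowest value in each case for Cd3g and Cd2. Without control 2, Cd2 had an r of 0.52 with Cd3d, 0.26 with Cd3e and 0.76 with Lck. With the brighter and dimmer Cd8b1 probes it had 0.31 and 0.32. Lck had, again without control 2, an r of 0.51 with Cd3g, 0.66 with Cd3e and 0.79 with Cd3d. With the brighter and dimmer Cd8b1 probes Lck had 0.70 and 0.81. Over all 8 arrays, Lck and Cd3g had an r of 0.57. The closest pairs without control 2 were Cd3e with the brighter Cd8b1 probe (0.95) and Cd3g with the same probe (0.94). These are descriptions over arrays that share their normalization, with no test and no r of other probe pairs beside them.

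Genes outside the members with the profile closest to the mean of the CD3 chains were Nkg7 (r = 0.98 over 8 arrays), Samhd1 (0.97), Cyp4f16 (0.96), Dtx1 (0.96), Psmb9 (0.96), Tmem161b (0.95), Ctsw (0.95) and Fas (0.95). Without control 2 these values were 0.99 for Nkg7 and between 0.92 and 0.96 for the other 7. Nkg7, a granule membrane protein of NK and T cells, was at 8.96, 8.25, 7.62 and 8.46 in VP16LXRa tumours 5 to 8 and at 8.11, 9.24, 8.71 and 6.19 in control tumours 1 to 4. Like each CD3 chain, it ordered the controls 2, 3, 1 and 4 from high to low, and so did Ctsw, a protease of cytotoxic lymphocytes. Between the groups Nkg7 differed by 0.26 (SE 0.61) and Ctsw by 0.19 (SE 0.51). All 8 genes were picked as the highest correlations among the tested probes, so their r values carry no test. The order of the controls shared by Nkg7 and Ctsw follows largely from that choice.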

How the data were processed

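The deposited table holds a signal per probe, under the sample's title, followed by a detection p-value. The signal was taken here as an average bead signal, a linear intensity with no background subtraction. The detection p-value was taken to set it against the array's own negative control beads. The submitters' processing notes name GenomeStudio. A second deposited table holds the authors' processed intensity values, which ranked probes as the scanner signals did (Spearman 1 in each array) and had medians of 20.1 to 20.4. The sources used here name neither the BeadChip type nor the release of its annotation.

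Signals were corrected in limma 3.58.1 (R 4.3.3) by normexp with an offset of 16, the negative controls being estimated from detection p-values, then quantile-normalised and put on a log2 scale. The 13426 probes detected (p under 0.05) on 4 or more of the 8 arrays entered lmFit and eBayes. Tests were two-sided, and p-values were adjusted by Benjamini-Hochberg over all these probes, with a threshold of 0.05. A gene of a list stands by its brightest tested probe. List scores are means, per array, of the genes' log2 deviations from their 8-array means. Named are all members, for each other list any gene past the threshold and the 2 brightest, and the 8 genes most correlated with the CD3 mean. Other genes were named after their values were seen. One gene that this rule names is not reported here. Members and lists were chosen with earlier results of these data known. The steps were tested on simulated data in which 50 probes were changed at each size. Of these 50, 10 were recovered at 1 log2 unit, 36 at 2, 43 at 3 and 46 at 4, with 8 false calls. The number of arrays limits the precision.

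Alternatives covered background correction, offset, normalization, filter, array weights, the authors' values and each array left out. For the other gene lists, leaving out single arrays was added after seeing the data.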

Additional observations from a re-analysis of the deposited data

Results flagged for a closer look

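Among the 14 sets of 4 values (7 tested probes in 2 groups), 1 held a sample far from the others, where chance flags about 1 in 20 sets. Cd3g was at 8.01 in VP16LXRa 7, while the other 3 VP16LXRa tumours lay between 8.82 and 8.93. VP16LXRa 7 was also the lowest VP16LXRa tumour for each of the other 6 tested probes, though not by a gap of that relative size. Without it the Cd3g difference was 0.72 and its sign was kept.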

How the results depend on the processing

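No member probe passed the threshold in any of the 16 alternatives, all fitted with limma. Over all probes, 2 passed with array weights, between 0 and 2 with single arrays left out (2 without VP16LXRa 5, 1 without VP16LXRa 8 and 1 without control 3), and 1 without both control 2 and VP16LXRa 5, an alternative added after seeing the data. Leaving out single arrays turned some signs, and the cause was not tested. The differences then ran from -0.85 (without control 4) to 0.14 (without control 2) for Cd3d, from -0.17 (without control 4) to 0.57 (without control 2) for Cd3e and from -0.72 (without VP16LXRa 5) to 0.012 (without control 2) for Lck. For the brighter Cd8b1 probe they ran from -0.69 (without control 4) to 0.59 (without control 2), with 0.27 without VP16LXRa 7. For the dimmer one they ran from -0.47 (without control 4) to 0.14 (without control 2), with 0.0013 without VP16LXRa 7. Without control 2 and VP16LXRa 5, the brighter Cd8b1 probe was at 0.41. Cd3g stayed above 0 and Cd2 below 0 in every alternative that tested them. The number of members lower in VP16LXRa tumours was 5 of 7 with all arrays, 1 of 7 without control 2, 3 of 7 without VP16LXRa 7 and 6 of 7 without control 4. With left-out arrays the median over the 6 tested genes ran between -0.69 and 0.36, around -0.23 with all arrays. No paired analysis was possible because the 2 groups share no replicate number, and no BeadChip block was run because the files name no chip. The dim probes of Cd4, Cd8a and Gzmb were limited by their signal over background.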

Other observations

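The CD3 delta and gamma chains, products of neighbouring genes, had a different log2 difference from tumour to tumour. Cd3g minus Cd3d on the log2 scale was 0.71, 0.97, 0.84 and 1.44 in VP16LXRa tumours 5 to 8 and 0.05, -0.56, 0.73 and 0.17 in control tumours 1 to 4. Only control 3 reached into the range of the VP16LXRa tumours. Taken relative to Cd3e, as deviations from 8-array means, Cd3d ran from -0.58 to -0.11 in VP16LXRa and from 0.0084 to 0.98 in control tumours. Cd3g so taken overlapped, from -0.11 to 0.32 in VP16LXRa and from -0.48 to 0.25 in control tumours. The pairs were chosen after the values were seen, no test was made, and no share over other probe pairs stands beside them. The values compare each array's 2 probes with the same pair on other arrays and say nothing of which chain was the more abundant.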
